A study of Mus musculus with 2 samples.

Results

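Early Alpi-positive enterocytes were taken here as 577 cell barcodes out of the 12756 deposited from mouse duodenal crypts, 345 in library 1 and 232 in library 2. A barcode stands for 1 droplet and, in most cases, 1 cell. Members had at least 500 genes, at most 25% of their UMIs (tags that count single captured RNA molecules) in mitochondrial genes, and at least 3 UMIs of Alpi and Slc13a1 together. They also had to lie below limits set on other programs: under 0.2% of UMIs in the lipoprotein genes Apoa1, Apoa4 and Apoc3, under 0.4% in the lectins Reg3b and Reg3g, under 0.5% in the goblet genes Clca1, Zg16 and Fcgbp, under 2% in the Paneth genes Lyz1 and Defa24, under 5 UMIs of Gsdmc2, Gsdmc3 and Gsdmc4, and under 10 UMIs of the mitotic genes Ube2c, Ccnb1, Cdc20 and Hmmr. The members were thus chosen by the measured levels of these genes, which are given below as a description only.

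The samples carry the labels ES and NT, letters that the labels do not spell out, and the series title speaks of chronic stress. Each was a pool of duodenal crypts from 5 wild-type animals, freed with EDTA and dissociated to single cells, so each condition is 1 library with no replicate. The labels give neither the age nor the sex of the pooled animals. The deposited barcodes end in the number 1 or 2, taken as the 2 libraries, and no label ties a number to ES or NT. All values below therefore describe numbered libraries. Ratios between them are library 1 over library 2, and no test between conditions was possible. Every interval is an exact 95% interval for the error of counting, which leaves out how animals differ. For gene levels and ratios it also leaves out how single cells differ.

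Absorptive enterocytes arise from crypt stem cells, pass through a dividing progenitor stage, leave the cell cycle as they climb out of the crypt, and turn on digestive and transport genes in an ordered way along the villus. Alpi encodes intestinal alkaline phosphatase of the brush border, and Slc13a1 a sodium-coupled sulfate transporter. Reg1 is a secreted lectin of the regenerating family, and S100g is calbindin-D9k, the calcium carrier of duodenal absorptive cells.

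The sequences just upstream of the start sites of Alpi, Reg1, S100g and Papss2 are shown because Alpi, Reg1 and S100g mark the cells and Papss2 ranked first among the genes that set them apart from barcodes with no Alpi or Slc13a1 UMI. Each is 250 bases from RefSeq on GRCm38.p6, 5′ to 3′ on the gene's strand, ending at the base before the start. Capitals mark matches on either strand to 4 motifs that bear the names of intestinal or general factors: CAAAGTNCA for HNF4, TTTATNG for CDX2, AGATAA for GATA and TATAAA for the TATA box.
Alpi, chr1:87101607-87101856, minus strand: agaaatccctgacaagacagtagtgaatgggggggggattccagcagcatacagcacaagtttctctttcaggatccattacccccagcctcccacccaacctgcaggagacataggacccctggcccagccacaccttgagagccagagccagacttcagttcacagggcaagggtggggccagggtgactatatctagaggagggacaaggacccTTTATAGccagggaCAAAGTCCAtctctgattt
Reg1, chr6:78425733-78425982, plus strand: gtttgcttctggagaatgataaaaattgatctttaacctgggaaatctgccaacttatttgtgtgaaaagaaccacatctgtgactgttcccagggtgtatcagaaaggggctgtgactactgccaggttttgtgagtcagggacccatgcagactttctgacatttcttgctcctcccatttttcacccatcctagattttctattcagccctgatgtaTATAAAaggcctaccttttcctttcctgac
S100g, chrX:162964600-162964849, minus strand: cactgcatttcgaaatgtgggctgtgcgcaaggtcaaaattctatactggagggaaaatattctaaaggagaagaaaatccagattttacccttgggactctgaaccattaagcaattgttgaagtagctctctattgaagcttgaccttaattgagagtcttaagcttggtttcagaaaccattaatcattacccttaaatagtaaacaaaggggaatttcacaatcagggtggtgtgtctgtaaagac
Papss2, chr19:32595465-32595714, plus strand: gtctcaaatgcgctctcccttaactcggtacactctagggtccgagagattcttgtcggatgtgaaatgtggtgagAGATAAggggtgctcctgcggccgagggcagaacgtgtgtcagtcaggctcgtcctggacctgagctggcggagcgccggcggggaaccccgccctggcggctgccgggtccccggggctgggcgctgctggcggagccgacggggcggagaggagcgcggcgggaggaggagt

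In the Alpi window the HNF4 letters begin 19 bases before the start, and the CDX2 letters begin 33 bases before it, where they overlap a TATA match on the other strand. The Reg1 window holds a TATA match 30 bases before the start, the Papss2 window a GATA match 174 bases before it, and the S100g window none of the 4. Of 32851 promoter windows of this length, 1.19% held the HNF4 letters, 9.81% those of CDX2, 9.99% those of GATA and 12.4% those of the TATA box. A match is a description of letters and shows no binding. RefSeq lists another Papss2 start, which is not shown. The Reg1 window lies inside the GENCODE span of Reg1 given next, so the RefSeq start used here is not the first base of that span. In GENCODE coordinates of the same build, Alpi (ENSMUSG00000079440, chromosome 1, 87098002 to 87101606, minus strand), Slc13a1 (ENSMUSG00000029700, chromosome 6, 24088283 to 24168092, minus strand), Reg1 (ENSMUSG00000059654, chromosome 6, 78422711 to 78428667, plus strand) and S100g (ENSMUSG00000040808, chromosome X, 162961992 to 162964599, minus strand) are protein coding.

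Of the 12756 barcodes, 7784 passed the limits on genes and mitochondrial UMIs, 4057 in library 1 and 3727 in library 2. The members made up 8.504% of the kept barcodes of library 1 (95% interval 7.66 to 9.405) and 6.22% of those of library 2 (5.47 to 7.05). They held 5264460 UMIs in library 1 and 3519170 in library 2. A member had a median of 14530 UMIs in library 1 and 14758.5 in library 2. It had a median of 4050 genes and 12.10% mitochondrial UMIs in library 1 and of 4163.5 genes and 10.54% in library 2. Doublets were not removed. The libraries shared 40 barcode sequences, 2 of which belonged to members, and 0 were members in both.

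The rule set the levels of Alpi and Slc13a1, and members held from 3 UMIs of both together up to 84 in library 1 and 118 in library 2, with medians of 8 and 7. Just inside the limit, 64 and 47 members had exactly 3 such UMIs, and just outside it 108 and 86 barcodes that met every other criterion had 2. For the lectin limit, the highest members had 0.3996% and 0.3997% of their UMIs in Reg3b and Reg3g, and the lowest barcodes beyond had 0.4021% and 0.4017%. For the lipoprotein limit, the highest members had 0.189% and 0.194%, and the lowest barcodes beyond had 0.209% and 0.203%. Most members were well below these limits, with medians of 0.0706% and 0.105% for the lectins and of 0.0159% and 0.0229% for the lipoproteins.

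The label was set beside its 4 markers. The rule itself required UMIs of Alpi and Slc13a1, so only Reg1 and S100g bear on the label. Alpi had a UMI in 99.1% of members of library 1 and 97.8% of those of library 2, and Slc13a1 in 73.0% and 65.9%. Reg1, which the rule did not use, had a UMI in 91.9% (88.5 to 94.5) and 86.2% (81.1 to 90.4), and S100g, likewise not used, in 58.8% (53.4 to 64.1) and 55.2% (48.5 to 61.7). All 4 markers were found together in 162 members of library 1, 47.0%, and in 94 of library 2, 40.5%, a count the rule bears on. In 149 and 116 lymphocyte-marked barcodes, which should lack these genes, Alpi was found in 2.01% and 6.03%, Reg1 in 17.4% and 18.1%, and S100g in 2.01% and 1.72%, at median depths of 2324 and 3094.5 UMIs. Reg1 and S100g were thus found in a larger share of members than of these barcodes. The lymphocyte-marked barcodes were shallower than the members (medians of 14530 and 14758.5 UMIs), and the part of depth in this was not tested. A contrast with lymphocytes cannot tell early from other absorptive cells. Without members that carried markers of other types, Reg1 and S100g were not called apart from any of the other Alpi-positive barcodes described below. Both were lower in the members than in those past the lipoprotein limit.

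Some members also carried markers of other cell types. At least 3 UMIs of the enteroendocrine genes Chga and Chgb, which encode granule proteins, were found in 9 members of library 1 (2.61%) and 25 of library 2 (10.8%), with up to 1229 and 1515 such UMIs in 1 barcode. Lymphocyte genes at this level were found in 1 and 2 members, tuft genes in 2 and 2, and the collagen genes Col1a1 and Col3a1 were at 0. In all, 11 and 29 members carried such markers, and 334 and 203 were left without them. Summed levels of some genes depended on these barcodes: 1 barcode gave 99.1% of the Afp UMIs of library 1 and 82.3% of those of library 2. The levels and ratios of the comparisons with other barcodes below are therefore given without them, a choice made after seeing the data. Counts with all members follow each.

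The first comparison set the members against crypt barcodes with no UMI of Alpi or Slc13a1 and at least 1 of Epcam that met every other criterion, called Alpi-zero (1148 and 844 barcodes, of which 966 and 637 were left without markers of other types). Since the absence of Alpi chose them, what follows is a description. All Alpi-zero barcodes together were shallower, with medians of 4090 and 6883.5 UMIs and 1955 and 2730 genes. The members had medians of 14530 and 14758.5 UMIs and 4050 and 4163.5 genes. A shallow barcode can lack an Alpi UMI by its depth alone, and the part of depth in this comparison was not tested. The members had far more RNA for digestion and uptake and far less for stem cells and DNA replication. Of 9354 genes measured, 502 were at least 2-fold higher in the members in both libraries with intervals that excluded 1, which is 5.37%, and 1052 were lower, 11.2%. Counts over all genes, here and below, include the genes of the rule. Among the higher genes here were Alpi and Slc13a1, whose calls the choice of barcodes fixed. With all barcodes the counts were 503 and 1509 of 10075 genes (4.99% and 15%), and with their ratios scaled to the median they were 789 and 1054. The median log2 ratio of all genes was -0.21 in library 1 and -0.17 in library 2.

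Without barcodes that carried markers of other types, the gene that ranked first was Papss2 (with all barcodes, Reg1); it encodes the synthase of PAPS, the donor of sulfate groups. Levels are UMIs summed over the barcodes of a library and given per 1000000 UMIs of that sum (CPM). Papss2 was at 622 CPM in library 1 and 606 CPM in library 2 in the members, against 25.5 and 33.6 CPM in Alpi-zero barcodes. The ratios were 24.4 in library 1 (95% interval 20.9 to 28.5) and 18.1 in library 2 (95% interval 15.4 to 21.3). Both libraries gave nearly the same member level. Reg1 was at 1948 and 1506 CPM in the members and 113 and 101 CPM in Alpi-zero barcodes, ratios of 17.3 and 14.95. Sult6b2, a member of the sulfotransferase family, was at 37.7 and 76.2 CPM, against 1.02 and 4.02 CPM. Gsta1, a glutathione transferase, was at 220.5 and 174 CPM, against 8.896 and 10.7 CPM, with near-identical copies in the genome that make its count uncertain. Slc40a1, ferroportin, the exporter of iron towards the blood, was at 107 and 111 CPM, against 5.25 and 8.44 CPM, ratios of 20.4 and 13.1.

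The brush border and transport genes were broadly higher in the members. The list counts here and below leave out the genes the rule used. Of 15 measured brush border hydrolases 11 were higher and 0 lower, with median log2 ratios of 2.54 and 1.82. Sis, sucrase-isomaltase, was at 1398 and 1193 CPM in the members and 74.7 and 102 CPM in Alpi-zero barcodes, ratios of 18.7 and 11.7. Anpep, aminopeptidase N, was at 1237 and 1745 CPM, against 167 and 353 CPM. Mgam, maltase-glucoamylase, was among the 4 that were not apart, at 410.4 and 436 CPM, against 263 and 319.9 CPM.

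Of 17 lipid absorption genes 16 were higher, with medians of 1.62 and 1.58. Fabp1, a fatty acid binding protein, was at 918 and 719 CPM in the members, against 78.3 and 89.5 CPM in Alpi-zero barcodes. Mttp, which loads lipid onto apolipoprotein B, was at 903 and 964 CPM, against 164 and 226 CPM. Of 8 sugar genes 6 were higher, among them Slc5a1, the sodium-glucose transporter of the brush border, at 392 and 418 CPM, against 124 and 149 CPM. Of 11 amino acid and peptide transport genes 7 were higher, among them Slc7a9 at 173 and 177 CPM, against 24.9 and 38.001 CPM; it encodes the light chain of a cystine and dibasic amino acid carrier. Slc9a3, the brush border sodium-proton exchanger, was at 84.3 and 102 CPM, against 4.81 and 7.64 CPM.

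Of 19 measured genes of xenobiotic metabolism 18 were higher in the members, with medians of 2.48 and 2.24. Gstm3, a glutathione transferase, was at 802 and 682 CPM in the members, against 111 and 109.6 CPM in Alpi-zero barcodes. Of 7 retinoid genes 4 were higher. Rbp2, the cellular carrier of dietary retinol, was at 593 and 614 CPM, against 38.8 and 70.4 CPM, ratios of 15.3 and 8.72. Aldh1a1, which makes retinoic acid from retinal, was at 453 and 396 CPM, against 35.4 and 44.03 CPM. Iron genes differed among themselves: Slc40a1 and Fth1, the ferritin heavy chain, were the 2 apart, and Tfrc, the transferrin receptor, was at 575 and 583 CPM, against 553 and 549.5 CPM.

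Most enterocyte transcription factors were not apart: of 22 measured, 5 were higher and 0 lower, with medians of 0.13 and 0.10. Hnf4g, a nuclear receptor of enterocyte genes, was at 211 and 188 CPM in the members and 41.7 and 52.7 CPM in Alpi-zero barcodes, and Creb3l3, a membrane-bound factor of lipid genes, at 206 and 201 CPM, against 19.8 and 21.5 CPM. Maf was at 171 and 176 CPM, against 15.3 and 24.5 CPM, and Pdx1, a duodenal and pancreatic factor, at 17.9 and 22.1 CPM, against 8.02 and 8.85 CPM. The related receptor Hnf4a stood at 418 and 448 CPM, against 589.9 and 569 CPM, and the homeobox factor Cdx2 at 92.7 and 110.3 CPM, against 102 and 116 CPM, both not apart. The 2 receptors of the HNF4 family therefore differed in pattern, with Hnf4g apart and Hnf4a not.

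Genes of stem cells and the cell cycle were lower in the members. Of 16 stem cell genes 15 were lower, with medians of -2.80 and -2.74. Olfm4, a glycoprotein of crypt base cells, was at 374 and 397 CPM in the members and 5715 and 6740.5 CPM in Alpi-zero barcodes, ratios of 0.0654 and 0.0589. Lgr5, the R-spondin receptor of stem cells, was at 3.59 and 5.35 CPM, against 111 and 119 CPM, and had a UMI in 5.22% and 6.47% of members. Olfm4, in contrast, had a UMI in 82.0% and 90.9% of members, and Mki67, a G2 and mitosis gene, in 50.4% and 54.7%. Their median UMIs in a member were 2 and 2 for Olfm4 and 1 and 1 for Mki67. Slc12a2, the basolateral chloride importer, was at 195 and 173 CPM, against 1843 and 1789 CPM, and the transcription factor Sox4 at 19.1 and 10.7 CPM, against 199.9 and 185 CPM. Of 22 S phase genes 18 were lower, among them Hells, a chromatin remodeller of replicating cells, at 40.9 and 41.5 CPM, against 184 and 161 CPM. Of 11 Notch genes 8 were lower and 0 higher, and Hes1, a target of Notch signalling, was not among them at 261 and 152 CPM, against 340.4 and 247 CPM.

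**Figure D1:**
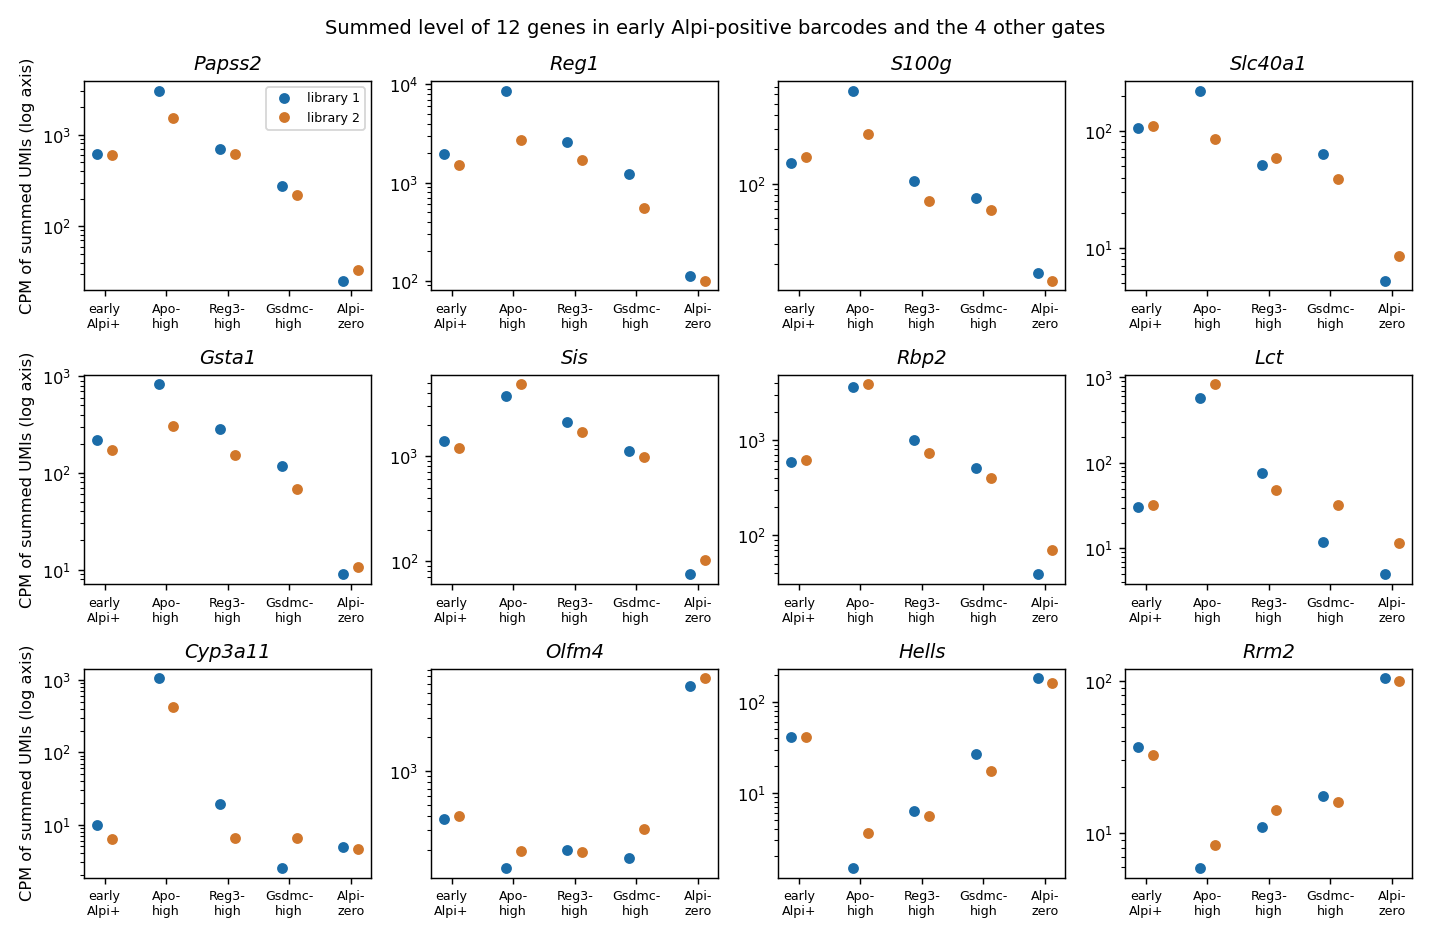
Summed level, in CPM (log axis), of 12 genes in early Alpi-positive barcodes and the 4 other gates, with library 1 in blue and library 2 in orange. Members and Alpi-zero barcodes are without those that carried markers of another cell type. Papss2 and Reg1 are higher in Apo-high barcodes than in the members, and step down from the members to Alpi-zero barcodes, in both libraries. Lct and Cyp3a11 stand out in Apo-high barcodes, and Hells and Olfm4 are highest in Alpi-zero barcodes.

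The next comparison set the members against Alpi-positive barcodes past the lipoprotein limit that met every other criterion, called Apo-high (51 barcodes in each library). The question is what separates early Alpi-positive barcodes from those further along the lipid absorption program. The members had less RNA for most digestive genes and more for the cell cycle and ribosomes. Of 7287 genes, 733 were higher in the members, 10.1%, and 341 lower, 4.68%. The lower genes include Apoa1, Apoa4 and Apoc3, whose calls the lipoprotein limit fixed. With all members the counts were 767 (10.1%) and 342 (4.49%) of 7614 genes. The median ratio of all genes was above 1, at log2 values of 0.28 and 0.28, and with all members and the ratios scaled to their median the counts turned to 388 higher and 559 lower.

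Cyp3a11, a cytochrome P450 of drug and bile acid metabolism, was at 9.97 CPM in library 1 and 6.35 CPM in library 2 in the members, against 1066 and 420.1 CPM in Apo-high barcodes. The ratios were 0.00935 in library 1 (95% interval 0.00687 to 0.0125) and 0.0151 in library 2 (95% interval 0.008996 to 0.02397). It belongs to a family of near-identical genes, so its count is uncertain. Lct, lactase, was at 30.1 and 32.1 CPM, against 572 and 831 CPM, ratios of 0.0526 and 0.0386. Slc2a2, the basolateral glucose and fructose transporter, was at 33.3 and 44.8 CPM, against 478 and 543 CPM, and Treh, trehalase, at 27.1 and 29.1 CPM, against 263 and 255 CPM. Leap2, the antagonist of the ghrelin receptor, was at 3.39 and 5.02 CPM, against 132 and 131 CPM. Among the genes that ranked lowest were also Slc7a15, Sectm1b, Selenop and Cyp2b10, with ratios from 0.0127 to 0.0618.

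All 15 measured brush border hydrolases were lower in the members, with medians of -1.95 and -2.19, and 12 of 17 lipid genes were lower with 0 higher. Sis was at 1398 and 1193 CPM in the members, against 3770.1 and 4834 CPM in Apo-high barcodes, and Fabp1 at 918 and 719 CPM, against 5687 and 5235 CPM. Rbp2 was at 593 and 614 CPM, against 3602 and 3870.4 CPM. For these genes the members lay between Alpi-zero and Apo-high barcodes. Of 21 xenobiotic genes 13 were lower, of 15 microvillus genes 8, and of 12 amino acid and peptide genes 8. Papss2 was also lower in the members, at 622 and 606 CPM, against 3026 and 1517 CPM. The markers themselves did not lead this contrast. Reg1 was at 1948 and 1506 CPM, against 8661 and 2741 CPM, and S100g at 150.3 and 173 CPM, against 649 and 269.7 CPM, at least 2-fold lower in library 1 and less than 2-fold lower in library 2. Slc40a1 differed between the libraries, lower in library 1 at 107, against 222 CPM, and not apart in library 2 at 111, against 85.9 CPM.

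Of 18 S phase genes 13 were higher in the members with 0 lower, with medians of 2.44 and 1.90. This excess varied among the members. Summed over 24 S phase genes, the lower tertile described below was at 1542 and 1400 CPM and the upper at 438 and 419 CPM. Apo-high barcodes were at 304 and 356 CPM. Where all members had to hold at least 10 UMIs of Alpi and Slc13a1, 302 genes were higher in place of 767. The part of this range in the S phase difference was not tested. Ccnd2, a cyclin of the G1 phase, was at 211 and 374 CPM in the members, against 25.01 and 52.5 CPM in Apo-high barcodes, ratios of 8.45 and 7.13. Myb, a transcription factor of progenitor cells, was at 68.6 and 69.5 CPM, against 8.83 and 8.35 CPM. Tfrc was at 575 and 583 CPM, against 129 and 144 CPM, ratios of 4.44 and 4.04. Of 10 stem cell genes 7 were higher, Clca3b among them at 474 and 874 CPM, against 80.9 and 171 CPM. Of 28 cytosolic ribosomal proteins 26 were higher, with medians of 1.32 and 1.38, and 4 of 9 heat shock genes were. Dmbt1, a secreted scavenger receptor of the mucosa, was at 3042 and 3599.5 CPM, against 538 and 591 CPM. Of the 6 that ranked highest with all members, Afp, Reg4 and Chgb did not rank there without the members that carried other markers. Those members were left out by their own Chga and Chgb UMIs, and Apo-high barcodes were not, so no level of these genes is compared here.

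**Figure D2:**
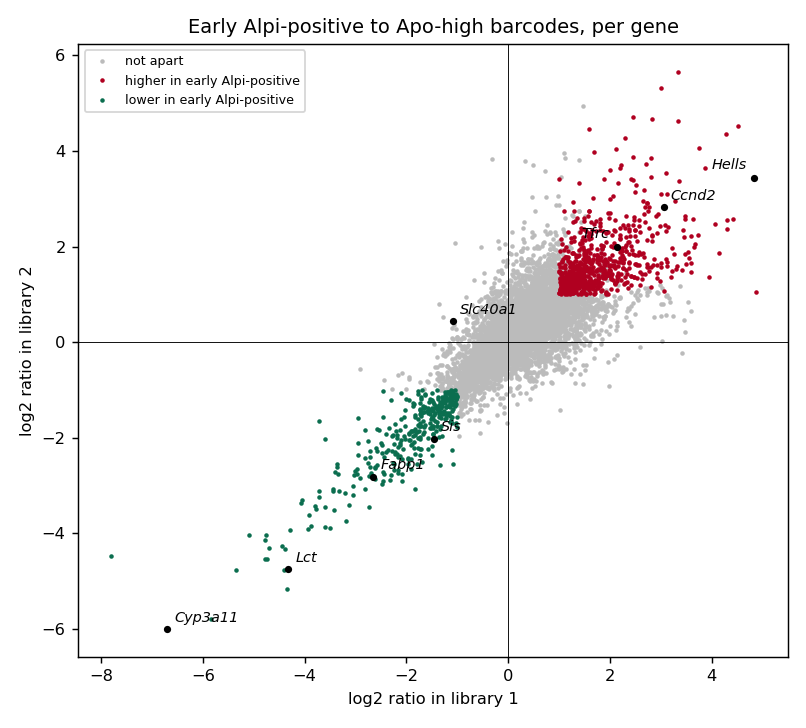
Log2 ratio of CPM in early Alpi-positive over Apo-high barcodes for each measured gene, with library 1 on the x axis and library 2 on the y axis, all members included. Red points are genes called higher, green points genes called lower in the members, and black points the labelled genes; Cyp3a11 and Lct lie at the lower left, Hells and Ccnd2 at the upper right, and Slc40a1 lies below 0 in library 1 and above 0 in library 2.

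Barcodes past the lectin limit alone, called Reg3-high (127 and 165), were much closer to the members. Of 8129 genes, 81 were higher in the members, 0.996%, and 11 lower, 0.135%. The lower genes include Reg3b and Reg3g, whose calls the lectin limit fixed. With all members the counts were 115 (1.38%) and 11 (0.132%) of 8329. Genes of DNA replication were among those apart: of 18 S phase genes 13 were higher in the members, with medians of 1.55 and 1.60, beside all-gene medians of 0.08 and 0.05. Hells was at 40.9 and 41.5 CPM in the members, against 6.24 and 5.499 CPM in Reg3-high barcodes. Its level also varied among the members, at 98.2, 9.04 and 3.39 CPM in library 1 and 74.3, 39.2 and 5.23 CPM in library 2 in the lower, middle and upper tertile by Alpi and Slc13a1 described below. Where all members had to hold at least 5 or at least 10 UMIs of Alpi and Slc13a1, 16 and 5 genes were higher in place of 115, and the part of this range in the S phase difference was not tested. Slfn9, a Schlafen family gene, was at 38.3 and 52.8 CPM, against 5.76 and 10.999 CPM, and Mki67 at 133 and 160.5 CPM, against 45.6 and 58.4 CPM. Lower in the members was Duox2, an oxidase that makes hydrogen peroxide at the mucosal surface, at 8.97 and 37.8 CPM, against 39.9 and 96.6 CPM. Spink1, a trypsin inhibitor, was at 167 and 258 CPM, against 539 and 519 CPM, and Osr2, a zinc finger factor, at 28.3 and 25.1 CPM, against 85.5 and 59.8 CPM. Of the 17 lipid genes and 15 brush border hydrolases measured 0 were apart, with medians between -0.83 and -0.35. Alpi itself was at 737 and 702 CPM, against 545 and 435 CPM, a difference the rule bears on.

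Barcodes past the gasdermin limit alone, called Gsdmc-high (70 and 112), differed least. Of 8106 genes, 11 were higher in the members, 0.136%, and 7 lower, 0.0864%; with all members the counts were 23 (0.277%) and 4 (0.0482%) of 8303. Papss2 was at 622 and 606 CPM in the members, against 277 and 221 CPM in Gsdmc-high barcodes, ratios of 2.24 and 2.75. Pdx1 was at 17.9 and 22.1 CPM, against 4.99 and 4.57 CPM, and Slc2a2 at 33.3 and 44.8 CPM, against 13.7 and 9.51 CPM. The gene 2210407C18Rik, for which no role is given here, ranked first at 473 and 517 CPM, against 188 and 204 CPM. S100g and Reg1 were above 1 in both libraries, with ratios of 1.99 and 2.94 and of 1.59 and 2.72, and below 2-fold in library 1. Of the 7 lower genes 3 were the gasdermins of the rule. The hormone cell genes Chga, Chgb and Tac1 were 3 more, and for these the members had been freed of barcodes with Chga and Chgb UMIs while Gsdmc-high barcodes had not. The last was Osr2, at 28.3 and 25.1 CPM, against 59.9 and 61.3 CPM. The gasdermin limit is a number of UMIs, and the Gsdmc-high barcodes were deeper, with median UMIs of 14530 and 14758.5 in the members, against 19691.5 and 21721.5 in Gsdmc-high barcodes.

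The members were next described along their own range, cut within each library into tertiles by Alpi and Slc13a1 UMIs per 10000. These are ranges of a per-cell score and not types. The cuts gave 115 barcodes a tertile in library 1 and 78, 77 and 77 in library 2, of which 109, 113 and 112, and 66, 68 and 69, were left without markers of other types. Medians of the score were 2.67, 7.41 and 17.6 in the lower, middle and upper tertile of library 1 and 2.62, 6.31 and 14.4 in those of library 2, and 15, 25 and 10 barcodes, and 11, 22 and 12, lay within 10% of a cut. Deeper barcodes were more frequent in the lower tertile, with median UMIs of 16104, 13568 and 12536 in library 1 and 16996, 13507 and 14156 in library 2. Of 5708 genes, 80 were at least 2-fold higher in the upper than in the lower tertile in both libraries, 1.4%, and 142 lower, 2.49%. The higher genes include Alpi and Slc13a1, which set the tertiles. With all members the counts were 97 (1.56%) and 184 (2.96%) of 6210.

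The upper tertile had more RNA for the markers the rule did not use and for digestive and xenobiotic genes. Papss2 was at 201, 465 and 1335 CPM in the lower, middle and upper tertile of library 1 and 150.5, 368 and 1367 CPM in those of library 2. Reg1 was at 538, 1528 and 4222 CPM in library 1 and 506, 949 and 3208 CPM in library 2 in the same order, and S100g at 54.2, 136 and 289 CPM in library 1 and 66.3, 114 and 352 CPM in library 2. Each step went up in both libraries. Gsta1 was at 56.8, 154 and 504 CPM in library 1 and 68.1, 117 and 351 CPM in library 2, Fabp1 at 449, 839.7 and 1604 CPM in library 1 and 339, 494 and 1378 CPM in library 2 and Slc40a1 at 37.7, 109 and 193 CPM in library 1 and 59.1, 90.4 and 190.3 CPM in library 2. Slc2a2 was at 11.7, 21.7 and 73.9 CPM in library 1 and 4.48, 11.98 and 123 CPM in library 2, with the upper tertile well above the others. Of 19 xenobiotic genes 10 were higher in the upper tertile, of 13 brush border hydrolases 6, of 10 amino acid and peptide genes 4, and of 16 lipid genes 3. Sis was at 816, 1410.0 and 2129 CPM in library 1 and 817, 894 and 1919.7 CPM in library 2, so in library 2 most of the difference lay between the middle and the upper tertile. Among 19 transcription factors 1 was higher, Creb3l3 at 110.5, 209 and 326 CPM in library 1 and 138, 143 and 330.4 CPM in library 2, and Vdr, the vitamin D receptor, was nearly level at 407, 425 and 427 CPM in library 1 and 397, 430.4 and 473 CPM in library 2.

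The lower tertile had more RNA of division and stem cell genes. Hells was at 98.2, 9.04 and 3.39 CPM in the lower, middle and upper tertile of library 1 and 74.3, 39.2 and 5.23 CPM in those of library 2. Mcm5, a subunit of the replicative helicase, was at 105, 25.3 and 9.49 CPM in library 1 and 83.3, 44.7 and 9.41 CPM in library 2, and Rrm1, a subunit of ribonucleotide reductase, at 79.1, 16.3 and 10.2 CPM in library 1 and 74.3, 47.9 and 7.32 CPM in library 2. Most of the fall came between the lower and the middle tertile in library 1, and it was spread over both steps in library 2. Of 15 S phase genes 12 were lower in the upper tertile, of 10 G2 and mitosis genes 7, and of 8 stem cell genes 6, with 0 higher in each list. Summed over 24 S phase genes the level was 1542, 497 and 438 CPM in library 1 and 1400.0, 749.6 and 419 CPM in library 2 in the lower, middle and upper tertile. Summed over 16 stem cell genes it was 2414, 809.6 and 595 CPM in library 1 and 2651, 1504 and 1011 CPM in library 2. Olfm4 was at 703, 194 and 157 CPM in library 1 and 673, 212 and 252 CPM in library 2, Slc12a2 at 382, 91.6 and 71.9 CPM in library 1 and 263, 124 and 114 CPM in library 2 and Myc, a growth-promoting transcription factor, at 29.2, 13.9 and 7.46 CPM in library 1 and 42.1, 19.6 and 9.41 CPM in library 2. Lgr5 stayed at 3.19, 6.03 and 1.36 CPM in library 1 and 8.96, 2.18 and 4.18 CPM in library 2, too few UMIs to be measured. Of 4 measured goblet markers and 8 measured Paneth markers outside the rule 0 were apart.

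**Figure D3:**
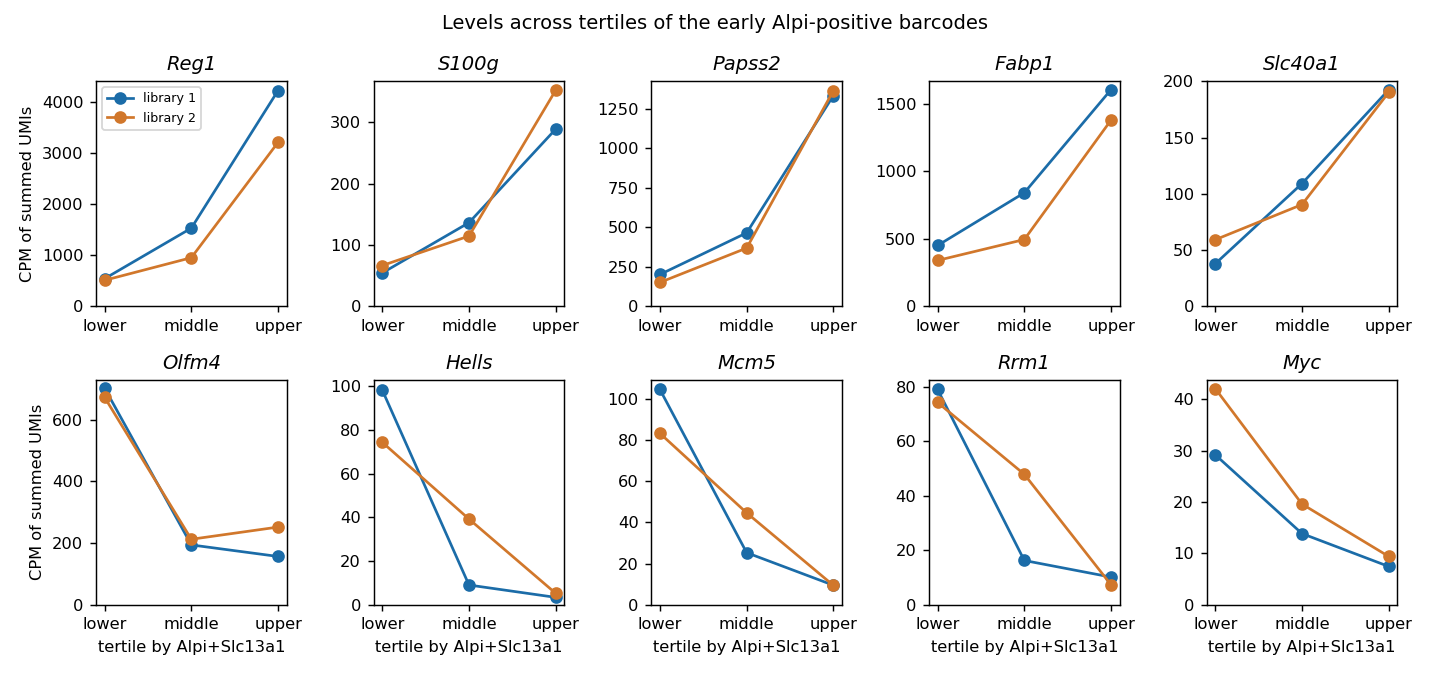
Level in CPM of 10 genes in the lower, middle and upper tertile of the early Alpi-positive barcodes by Alpi and Slc13a1 UMIs per 10000, without barcodes that carried markers of another type; library 1 is blue and library 2 orange. The upper row (Reg1, S100g, Papss2, Fabp1, Slc40a1) climbs to the upper tertile, and in the lower row Hells, Mcm5, Rrm1 and Myc fall at each step in both libraries, while Olfm4 falls between the lower and the middle tertile.

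Between the libraries the digestive program of the members was close to level. With all members, 7738 genes had at least 100 UMIs over both libraries. Of these, 96 were at least 1.5-fold higher in library 1 with an interval that excluded 1, 1.24%, and 249 lower, 3.22%. For lists, genes were counted from 20 UMIs, where 171 (1.64%) and 492 (4.72%) of 10419 genes were apart and the all-gene median log2 ratio was -0.043. With the genes of the rule left out of each list, 1 of 18 lipid genes was higher and 1 lower, and of 16 brush border hydrolases 1 and 2. Of 12 amino acid and peptide genes, 7 iron genes and 15 microvillus genes 0 were apart. Alpi was at 727 CPM in library 1 and 690.2 CPM in library 2 (1.05, 1.001 to 1.11), where the brackets hold the ratio and its interval, Slc13a1 at 176 and 165 CPM (1.07, 0.963 to 1.19) and S100g at 153 and 172 CPM (0.889, 0.799 to 0.989). Reg1 was at 1919 and 1704 CPM (1.13, 1.09 to 1.16), Sis at 1374 and 1191 CPM (1.15, 1.11 to 1.199) and Papss2 at 612 and 652 CPM (0.939, 0.8902 to 0.992). Anpep was lower in library 1, at 1218 CPM in library 1 and 1715 CPM in library 2 (0.7103, 0.686 to 0.736), without reaching 1.5-fold, and Mep1b, a meprin metalloprotease, reached it at 206 and 317 CPM (0.649, 0.596 to 0.706). Genes of cholesterol synthesis were below 1 in all 18 cases, and 5 were apart (median -0.41); Sqle, squalene epoxidase, was at 47.3 and 78.1 CPM (0.605, 0.508 to 0.721).

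Interferon-induced genes were the list with the lowest median, -2.10: of 23 measured, 21 were lower in library 1 and 0 higher. In the members Oasl2, a relative of the oligoadenylate synthetases, stood at 33.1 CPM in library 1 and 204 CPM in library 2 (0.162, 0.136 to 0.191). Ifi44 was at 3.99 and 80.99 CPM (0.0493, 0.03002 to 0.0768), Rtp4, a chaperone of receptors, at 7.41 and 59.1 CPM (0.125, 0.0867 to 0.177) and Ifit1, which binds foreign RNA ends, at 1.33 and 48.3 CPM (0.0275, 0.0109 to 0.05796). Irf1 stood outside this pattern, at 210.1 and 211 CPM (0.998, 0.908 to 1.097). All 7 MHC class II genes were lower in library 1, with a median of -2.00, and Cd74, the class II invariant chain, was at 30.4 and 162 CPM (0.187, 0.156 to 0.224). Of 14 MHC class I genes 8 were lower and all were below 1, with a median of -0.66; B2m, the light chain, was at 1004 and 1475 CPM (0.6803, 0.655 to 0.707), and the H2-Q genes have near-identical copies. The antimicrobial list had 5 of 8 lower, among them Lypd8, a secreted protein that binds flagella of bacteria, at 3885 and 5918 CPM (0.656, 0.644 to 0.669), Duox2 at 8.74 and 40.4 CPM (0.217, 0.152 to 0.304) and Nos2, the inducible nitric oxide synthase, at 1.14 and 22.7 CPM (0.0501, 0.0179 to 0.114).

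The interferon and MHC class II differences were not particular to the members. Summed over 28 interferon genes the level was 606 and 1621 CPM in libraries 1 and 2 of the members, 794 and 1604 CPM in Alpi-zero barcodes and 702 and 1568 CPM over all kept barcodes. The MHC class II genes summed to 76.9 and 330.2 CPM in the members and 210.1 and 486 CPM over all kept barcodes. Markers of other cells were also mostly below 1 over all members. All 7 goblet markers outside the rule were below 1 in library 1, 1 apart, with a summed level of 588 and 865 CPM in members, against 4027 and 6349 CPM over all kept barcodes. The goblet direction was not the same on both sides of 10% mitochondrial UMIs: at or under it and over it Tff3, the trefoil factor of goblet cells, had ratios of 1.44 (1.28 to 1.63) and 0.539 (0.489 to 0.595), and Spink4 1.22 (1.04 to 1.44) and 0.535 (0.468 to 0.612). All 8 Paneth markers outside the rule were below 1, 5 apart, at 1087 and 1663 CPM, against 12419 and 13621 CPM over all kept barcodes. Defa30 and Itln1 were below 1 on both sides of 10%, with ratios of 0.705 and 0.6899 and of 0.759 and 0.568. Of 9 lymphocyte markers 8 were lower, at 74.1 and 201 CPM, against 1226 and 1404 CPM over all kept barcodes. Of 11 enteroendocrine markers 7 were lower, at 529 and 2277 CPM, against 708 and 1430 CPM over all kept barcodes. The Paneth, lymphocyte and enteroendocrine lists were thus closer to level between the libraries over all kept barcodes than in the members. Without members that carried markers of other types, 21 of 23 interferon genes, 6 of 7 class II genes and 8 of 13 class I genes were lower, and so were 2 of 6 lymphocyte, 5 of 7 enteroendocrine, 1 of 7 goblet and 4 of 8 Paneth markers. The part of free RNA in these differences was not tested.

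Immediate early genes, which are induced within minutes of a stimulus, went the other way. All 16 measured members of the list were above 1 in library 1 and 12 were apart, with a median of 0.80. Atf3, a stress-responsive transcription factor, was at 205 CPM in library 1 and 82.7 CPM in library 2 (2.48, 2.18 to 2.83) in the members. Fosb, a subunit of the AP-1 factor, was at 252 and 104 CPM (2.42, 2.15 to 2.72), Nr4a1, an orphan nuclear receptor, at 65.5 and 22.2 CPM (2.96, 2.31 to 3.83) and Egr1, a zinc finger factor, at 928 and 511 CPM (1.82, 1.72 to 1.92). The intervals of these 4 ratios all lay above 1.5. Hbegf, a ligand of the EGF receptor, was at 213 and 98.03 CPM (2.18, 1.93 to 2.46) and Ccn1, a matrix protein, at 24.7 and 5.11 CPM (4.83, 2.94 to 8.402). The list summed to 5742 and 3636 CPM in the members and to 5256 and 3675 CPM over all kept barcodes. Of 13 glucocorticoid response genes 4 were higher and 2 lower, with a median of 0.098; Klf9 was at 54.3 and 34.95 CPM (1.55, 1.254 to 1.94) and Fkbp5, a classical target of the receptor, at 7.22 and 10.2 CPM (0.706, 0.435 to 1.15). All 28 ribosomal proteins were slightly above 1, with a median of 0.18 and 0 apart.

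Several other single genes stood out between the libraries. Hes1 was higher in library 1, at 267 CPM in library 1 and 154 CPM in library 2 (1.73, 1.57 to 1.91), and Ccnd2 lower, at 208 and 374 CPM (0.555, 0.512 to 0.602). Gm47283, annotated on chromosome Y, ranked highest of all, at 21.5 and 1.42 CPM (15.1, 6.29 to 47.4), and over all kept barcodes it had 1803 UMIs in library 1 and 109 in library 2. Over all kept barcodes Erdr1 was also higher in library 1, at 9.45 and 6.14 CPM. The Y-linked genes Ddx3y at 49.6 and 54.5 CPM, Eif2s3y at 55.06 and 73.7 CPM, Uty at 17.4 and 22.4 CPM and Kdm5d at 16.5 and 24.7 CPM were all lower. Xist had 14 UMIs in library 1 and 10 in library 2 over the same barcodes. Tac1, the precursor of substance P, Chgb and Vim, vimentin, ranked among the lowest with all members. Without the members that carried other markers Tac1 was at 2.79 and 7.69 CPM and Vim at 0.797 and 4.68 CPM, both under the minimum of 100 UMIs, and Chgb at 16.7 and 33.8 CPM.

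**Figure D4:**
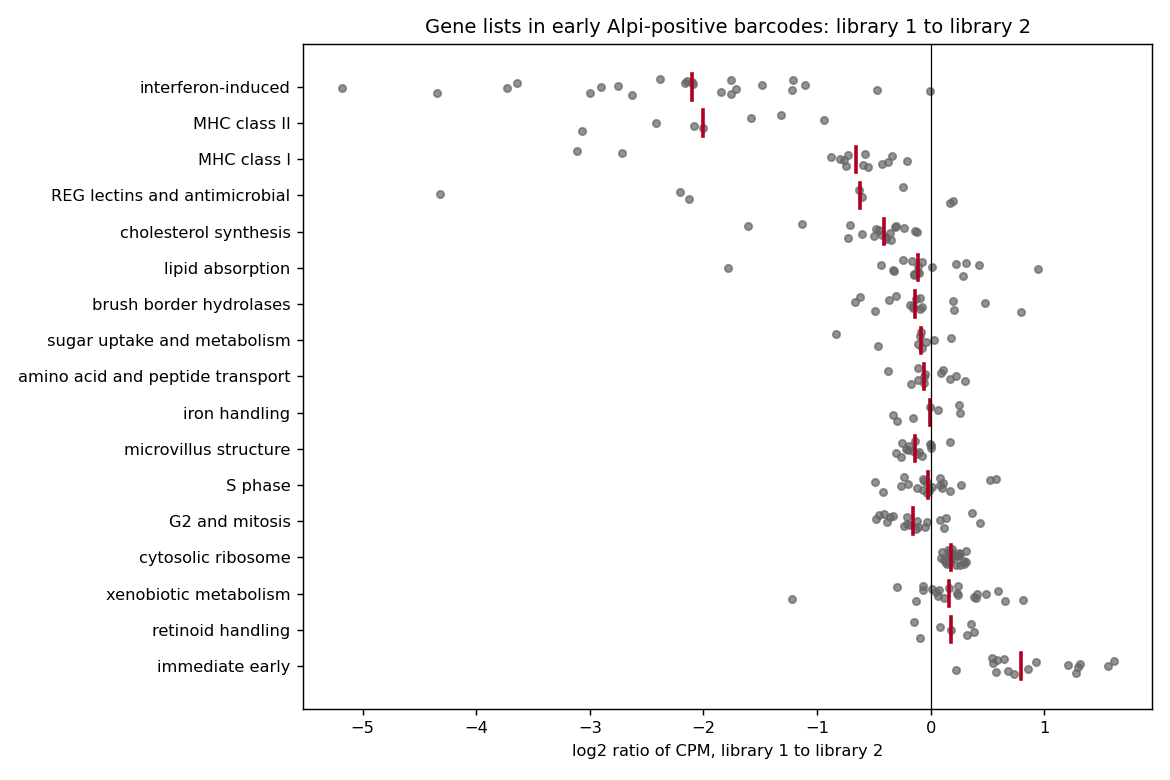
Log2 ratio of CPM, library 1 to library 2, for each gene with at least 20 UMIs in 17 lists, genes of the rule left out, in all early Alpi-positive barcodes. Points are genes and red lines are list medians: interferon-induced and MHC class II genes lie near -2, immediate early genes near 0.8, and the digestive lists near 0.

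The share of barcodes that were members was 1.37 times as high in library 1 as in library 2, and this depended on mitochondrial content. Among barcodes with 10 to 15% mitochondrial UMIs, 13.1% of library 1 (11.3 to 14.98) and 9.29% of library 2 (7.50 to 11.3) met the rule, and with 15 to 20%, 14.9% (11.8 to 18.4) and 8.84% (6.001 to 12.5). With 5 to 10% the order was the other way, at 4.80% (3.72 to 6.08) and 6.89% (5.63 to 8.35). Taken at or under 10%, 66 of 1989 barcodes of library 1 (3.32%) and 100 of 2169 of library 2 (4.61%) were members, a ratio of 0.720. Of the members, 19.1% in library 1 and 43.1% in library 2 lay at or under 10%. The direction of the difference in share therefore rested on barcodes over 10%, and a share is not shown to differ between the libraries apart from that limit.

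Gene ratios were also set side by side on the 2 sides of 10%. At or under it, 284 genes were apart between the libraries, 107 of which were among the 345 reported. Of 225 named genes 17 had ratios on opposite sides of 1 with both intervals excluding 1, among them Alpi, Reg1, Sis, Mki67 and Tff3. The interferon, MHC and immediate early genes given here did not: at or under 10% and over it, Oasl2 had ratios of 0.155 and 0.178, Cd74 of 0.145 and 0.201, B2m of 0.667 and 0.683, Egr1 of 1.83 and 1.77, and Fosb of 2.13 and 2.24. Ccn1 had 1.17 (0.336 to 3.86) and 5.41 (2.85 to 11.6). Mki67 had 1.53 (1.27 to 1.85) and 0.7497 (0.646 to 0.871). Alpi itself had 0.798 (0.725 to 0.878) and 1.19 (1.12 to 1.28), and Papss2 0.685 and 1.09, so the near-level ratios of Alpi and Papss2 over all members joined a lower value on one side with a higher one on the other.

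**Figure D5:**
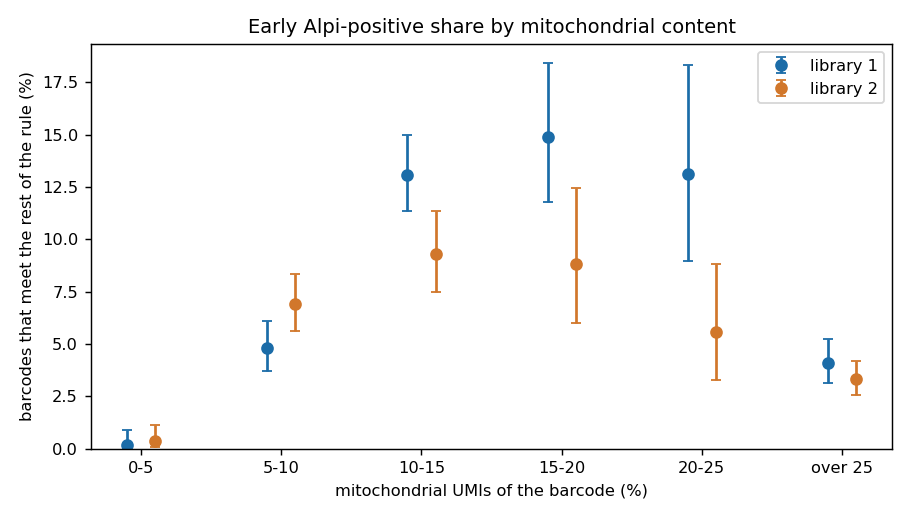
Percent of barcodes that meet the rest of the early Alpi-positive rule, by the barcode's mitochondrial UMIs in percent, in library 1 (blue) and library 2 (orange), with exact 95% intervals. The share is higher in library 2 from 5 to 10% and higher in library 1 from 10 to 25%; barcodes over 25% are outside the rule and shown for comparison.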

How the data were processed

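The authors deposited UMI counts per gene and barcode, 1 matrix for both libraries; per the submitters' processing notes Cell Ranger 2.1.1 and mm10 were used, and no source used here says how cells were called. The matrix has 31253 features, of which 99.5% have GENCODE M21 coordinates. Deposited barcodes have 27 bases, and which kit chemistry gave them was not settled. UMIs of the members were summed per library and scaled to CPM; ratios of sums have exact binomial and levels exact Poisson or Clopper-Pearson 95% intervals, which cover counting error only. With 1 pooled library per condition, no test was run. Between libraries a gene was called apart at a ratio of 1.5 with an interval that excluded 1 and at least 100 UMIs (lists, 20 UMIs); between gates and tertiles, at 2-fold in the same direction in both libraries with at least 50 UMIs in each. Barcodes with 3 or more UMIs of Ptprc, Cd3e and Cd3g, of Chga and Chgb, of Dclk1 and Trpm5, or of Col1a1 and Col3a1 were left out where stated.

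The genes named are the 4 markers and rule genes, the 6 highest and 6 lowest in each gate comparison, the 10 highest and 10 lowest between libraries (by the interval bound nearest to 1), and up to 4 genes of each list with the most UMIs. Other genes named were chosen after their values were seen. All 601 symbols of the 43 lists were found. Members and lists were chosen with earlier results of these data known. Alternatives covered the limits of the rule, depth, scaling, low counts, fold and other cell types. The calling step was tested on simulated counts with Poisson error only, which hold no spread between cells or animals. Doublets were not removed, and counts of near-identical genes are uncertain. Computations used Python 3.11.15, numpy 2.4.6, scipy 1.17.1 and pandas 2.3.3, and figures matplotlib 3.10.9. No column of another series was used.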

Additional observations from a re-analysis of the deposited data

Results flagged for a closer look

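Outside the mitochondrial limit, 58 barcodes of library 1 and 67 of library 2 with over 25% mitochondrial UMIs met the rest of the rule. They enter no comparison of the members.

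With all members, 7 ratios of named genes were at least 1.5-fold to opposite sides of 1 in the 2 libraries with intervals that excluded 1, and these differences were not tested. Against Apo-high barcodes, Gzmb, a granzyme of cytotoxic lymphocytes, had ratios of 0.387 in library 1 and 1.75 in library 2, and H2-DMa, a class II chaperone, 3.94 and 0.531. Against Reg3-high barcodes, Cyp2b10, a cytochrome P450 with close copies, had 0.662 and 2.57. Against Gsdmc-high barcodes, Ccn1 had 1.58 and 0.345, Tac1 0.363 and 3.89, and Vim 0.275 and 2.62. Against Alpi-zero barcodes, Gip, an incretin hormone of enteroendocrine cells, had 2.38 and 0.0973.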

How the results depend on the processing

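No paired analysis was possible because each condition is 1 library and no result comes from a test. Counts below are of genes higher and then lower in the members, or in library 1, with all members. Of 2871 alternatives for single genes, 2731 kept the call or stayed without one, 61 gained it, 72 lost it and 7 reversed. Direction was compared only for genes called in the reported setting, so a gene not called could cross 1 and still count as kept. Of 143 alternatives for shares and counts, 78 stayed within the limit set for them. The cause of each change was not tested unless the setting itself leaves fewer genes or barcodes.

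With mitochondrial UMIs at most 10% the shares were 3.32% and 4.61%, and their ratio turned to 0.720; counts were 462 higher against Apo-high, 73 and 7 against Reg3-high and 15 and 2 against Gsdmc-high. Shares were 10.6% and 7.37% with at least 1500 genes, 5.87% and 4.37% from 5 UMIs of Alpi and Slc13a1, 3.60% and 2.63% from 10, 3.21% and 1.91% with the rule applied after thinning to 2000 UMIs, and 5.45% in library 2 without members with other markers. From 5 UMIs the higher genes were 501 (Apo-high), 16 (Reg3-high) and 13 (Gsdmc-high). From 10 UMIs the counts were 302 and 218, 5 and 3, and 2 lower against Gsdmc-high. With 2-fold between libraries and 1.5-fold between gates they were 17 and 83 (libraries), 1369 and 613 (Apo-high), 280 and 54 (Reg3-high), 60 and 9 (Gsdmc-high) and 984 and 2715 (Alpi-zero). Genes from 20 UMIs gave 171 and 492 (libraries) and 180 and 18 (Reg3-high), and genes from 300 UMIs 31 and 88, 244 and 156 (Apo-high), 15 and 4, 6 and 1 (Gsdmc-high), and 306 and 470 (Alpi-zero). Thinning after the rule gave 41 and 60, 165 and 119 (Apo-high), 12 and 3 (Reg3-high), 4 and 1 (Gsdmc-high), and 286 and 562 (Alpi-zero), and 33 of its 101 calls between libraries were among the 345 reported. Scaling to the median ratio gave 388 and 559 (Apo-high) and 789 and 1054 (Alpi-zero). Gsdmc-high had 11 and 7 without members with other markers and 11 higher without the deepest 5% of barcodes.

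Without members with other markers, Chgb turned to 0.584 against Apo-high and 0.828 against Reg3-high, Chga to 0.597 against Reg3-high, and Reg4 to 0.918 against Reg3-high and 0.856 against Gsdmc-high; these members were left out by their own Chga and Chgb UMIs and the other gates were not, so the setting itself lowers Chga and Chgb. Without Alpi-zero barcodes with other markers, chosen after seeing the data, Gzma and Gzmb turned to 1.14 and 1.14. Genes under the UMI minimum could not be compared at this depth.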
